A study of Mus musculus with 7 samples.

Results

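The guanylate-binding proteins are a family of large interferon-inducible GTPases, and 6 of their genes (Gbp2, Gbp3, Gbp4, Gbp5, Gbp7 and Gbp9) are described here over 7 libraries made from progenitors sorted from mouse bone marrow. The 6 genes are of 23930 in the tables. They were chosen from earlier results of these same libraries, in which genes of the family were raised in pMT-10 progenitors, so the strain difference is given as a description with no test. Of the family the tables also hold Gbp2b and Gbp11. All 6 members passed the filter on low counts, which left 11429 genes for testing, and neither Gbp2b nor Gbp11 did. Gbp4 and Gbp9 passed it through the pMT-10 libraries alone.

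Interferon-γ acts through its receptor, the Janus kinases and the STAT factors to induce these genes, together with interferon regulatory factors that bind the interferon-stimulated response element in their promoters. The proteins bind and split guanine nucleotides, assemble into coats on the membranes of pathogen vacuoles and bacteria, and promote inflammasome activity and pyroptosis. They are a part of cell-autonomous defence, and in haematopoietic cells their transcripts are used as readouts of interferon exposure.

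The pMT-10 mouse overexpresses IL-10 from a transgene with a metallothionein promoter, which zinc switches on. Mice of both strains, pMT-10 and the control C57BL/6 (BL/6), drank water with zinc for 15 days, so the controls had the zinc but not the transgene. Common myeloid progenitors (CMPs) gave 2 libraries from BL/6 and 2 from pMT-10 mice. The pMT-10 mice further gave 2 libraries of LSK cells (Lineage-, SCA-1+, c-KIT+) that carry CD150 and CD48, and haematopoietic stem cells (HSC) gave 1. There was no BL/6 counterpart for either of these populations. The labels give no age, sex or number of animals and do not say which cells express the transgene, nor whether replicate libraries stem from different animals. The p-values therefore reflect the spread among these libraries alone, and that spread may be technical.

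Totals ran from 7372430 to 13854314 counts per library, over 1 amplicon per gene. Il10 itself had 0 to 2 counts in every library, so the transgene was not checked by these progenitor libraries, and Ifng, which encodes interferon-γ, had 0 counts in all 7. One sequencing chip read the pMT-10 CMP and LSK libraries, another read those of HSC and BL/6 CMPs, so strain and chip cannot be told apart in the CMPs. The pMT-10 CMP pair stood apart in its spread, with an SD of 0.714 for the log2 difference between its libraries over the tested genes, against 0.404 in the LSK pair and 0.31 in the BL/6 pair. The Y-linked genes Ddx3y and Eif2s3y had 0 counts in both BL/6 libraries. In the pMT-10 libraries they had 197 to 1040 and 62 to 609 counts. This difference coincides with strain and cannot be told apart from it. The part of this difference in the results was not tested. The sort markers fitted the labels in part. Ly6a, which encodes SCA-1, was at 249 to 331 CPM (read counts scaled to the library's total, in the usual unit of that name) in LSK cells and HSC. The pMT-10 CMPs had 19.4 and 28.0 CPM of it, and the BL/6 CMPs 0.0923 and 2.02 CPM. Cd34 and Kit were present in the CMPs of both strains, but the strains differed in several markers (edgeR quasi-likelihood test, adjusted p under 0.05). Of 10 tested marker genes of the sorted populations 3 were higher in pMT-10 than in BL/6 CMPs and 2 lower. On the log2 scale Ly6a was at 4.41, Fcgr3 at 2.44, Cd48 at 1.69, Kit at -1.29 and Slamf1 at -0.85. The part of these marker differences in the strain comparison was not tested. Mecom and Procr, stem cell genes, were highest in the HSC library (47.7 and 38.5 CPM).

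The members lie in 2 clusters in the mm10 genome (GRCm38). Gbp5 (chr3:142493978-142522344), Gbp7 (chr3:142530342-142550149), Gbp3 (chr3:142560026-142573209), Gbp2b (chr3:142594847-142619179) and Gbp2 (chr3:142620602-142638008) follow each other on the plus strand of chromosome 3 in the GENCODE M21 annotation. Gbp9 (chr5:105077630-105139539) and Gbp4 (chr5:105115767-105139586) lie on the minus strand of chromosome 5, where GENCODE lets them overlap, whereas RefSeq ends Gbp9 before Gbp4 begins. Gbp11 (chr5:105323042-105346472) is a polymorphic pseudogene of the same cluster. The members' transcripts share few exact runs of 50 bases with other Gbp genes. The share of such runs found in another family gene was 0.0% for Gbp5, 2.07% for Gbp2, 2.26% for Gbp7, 3.83% for Gbp3, 7.48% for Gbp9 and 11.3% for Gbp4. The place of each amplicon was not analysed here, so it is not known whether it lies in a shared stretch, and reads of Gbp4 and Gbp9 are the more uncertain.

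RefSeq promoters (build GRCm38.p6, 250 bases before to 50 bases after each transcript start) matched 4 of the 6 members, all on chromosome 3, and Gbp2b. Gbp4 and Gbp9 were not matched. The core of the interferon-stimulated response element, TTTCNNTTTC or its reverse complement GAAANNGAAA, was searched on both strands and was present in 3.44% of the 32851 promoters in the table, in which a gene can have several starts. It was found in a promoter of each of the 4 matched members and in that of Gbp2b. The next lines show 60 bases of the plus strand around that element, in capitals, because it is the feature that the matched members share.
Gbp2: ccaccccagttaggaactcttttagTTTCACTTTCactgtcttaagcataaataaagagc
Gbp3: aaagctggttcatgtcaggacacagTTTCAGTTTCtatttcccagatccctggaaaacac
Gbp5: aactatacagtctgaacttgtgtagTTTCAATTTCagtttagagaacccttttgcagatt
Gbp7: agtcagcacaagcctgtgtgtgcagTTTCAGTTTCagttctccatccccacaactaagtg
Gbp2b: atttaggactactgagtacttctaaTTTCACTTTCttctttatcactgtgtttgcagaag

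The windows are chr3:142620579-142620638 for Gbp2, chr3:142559974-142560033 for Gbp3, chr3:142496744-142496803 for Gbp5, chr3:142530258-142530317 for Gbp7 and chr3:142594685-142594744 for Gbp2b. The element began 59 bases before the transcript start of Gbp2, 45 before that of Gbp3, 53 before that of Gbp7, 137 before that of Gbp2b and 165 before that of Gbp5. The Gbp3 promoter held another copy that overlaps the one shown and begins 39 bases before the start, and a downstream start of Gbp3 had none. The gamma-activated sequence TTCNNNGAA, to which STAT factors bind, was present in 8.3% of all promoters. Gbp5 had 2 copies, 245 and 52 bases before its start, and Gbp7 had 2, 106 and 87 bases before its start. The windows of Gbp2, Gbp3 and Gbp2b did not hold these letters. Gbp2b carries the element yet had 0 counts in all 7 libraries, which allows a level of up to 0.216 to 0.397 CPM (3 counts, counting error only). Gbp11 had 0 counts in the 4 CMP libraries, 7 and 6 in LSK cells and 4 in HSC.

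Every member was higher in both pMT-10 CMP libraries than in both BL/6 CMP libraries, by 2.89-fold (Gbp7) to 64.3-fold (Gbp4) in the fit. The median log2 fold change of the members was 3.06, against 0.01 over all tested genes. All 6 were at least 2-fold higher with no overlap between the libraries, which 12.5% of all tested genes were. This contrast was among the values that chose the members, so nothing is read from that count. Levels of different genes are not compared with each other, since each amplicon has its own yield.

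Gbp2 and Gbp5 carry the C-terminal signal for prenylation, a lipid anchor that holds them on membranes. Gbp2, which coats the vacuole of Toxoplasma gondii, was at 15.5 and 12.2 CPM in BL/6 CMPs, 168 and 36.6 CPM in pMT-10 CMPs, 368 and 373 CPM in LSK cells and 217 CPM in HSC. The pMT-10 CMP libraries were both above BL/6 but 4.59-fold apart, while the LSK libraries were nearly equal. The log2 fold change of Gbp2 between the strains was 2.89 ± 0.57 (SE, n = 2 libraries a group), and went from 1.41 without pMT-10 CMP replicate 1 to 3.60 without replicate 2.

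Gbp5, which promotes NLRP3 inflammasome assembly, was at 17.4 and 16.5 CPM in BL/6 CMPs, 68.8 and 51.2 CPM in pMT-10 CMPs, 167 and 160 CPM in LSK cells and 188 CPM in HSC. Each step in that order had no overlap, and the replicates of each pair were close. The difference between the strains in CMPs was 1.82 ± 0.21 on the log2 scale.

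Gbp3, another member on chromosome 3, was at 23.5 and 24.9 CPM in BL/6 CMPs, 324 and 396 CPM in pMT-10 CMPs, 354 and 292 CPM in LSK cells and 308 CPM in HSC. The 5 pMT-10 libraries lay in a narrow band far above the BL/6 pair, with no order among the 3 populations beyond their spread. Its strain difference in CMPs was 3.89 ± 0.21 on the log2 scale, or 14.9-fold. The SEs of Gbp3 and Gbp5 were the smallest of the 6.

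Gbp7, which takes part in delivering oxidase and autophagy proteins to pathogen vacuoles, was at 60.1 and 68.2 CPM in BL/6 CMPs, 244 and 127 CPM in pMT-10 CMPs, 447 and 427 CPM in LSK cells and 170 CPM in HSC. It was the member with the smallest strain difference, 1.53 ± 0.28 on the log2 scale, and without pMT-10 CMP replicate 1 that was 0.98. The HSC value fell between the pMT-10 CMP libraries and far below the LSK pair.

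Gbp4, of the chromosome 5 cluster, had 6 and 2 counts in the BL/6 CMP libraries, or 0.554 and 0.162 CPM. It reached 32.1 and 13.9 CPM in pMT-10 CMPs, 108 and 64.4 CPM in LSK cells and 150 CPM in HSC. The groups lay in that ascending order with no overlap. The strain difference in CMPs was 6.01 ± 0.63 on the log2 scale. The pooled counts, 411 against 8, gave a ratio of 67.4 with an exact 95% interval of 33.9 to 157, which covers counting error only. Without BL/6 CMP replicate 1 the log2 difference was 7.05, and without pMT-10 CMP replicate 1 it was 5.28.

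Gbp9, of the same cluster, was the least read member, with 7 and 2 counts (0.646 and 0.162 CPM) in BL/6 CMPs. It reached 5.96 and 1.62 CPM in pMT-10 CMPs, 8.18 and 6.84 CPM in LSK cells and 19.99 CPM in HSC. The order of the groups was that of Gbp4, with pMT-10 CMP replicate 2 the nearest to the BL/6 level. The strain difference was 3.24 ± 0.75 on the log2 scale, and 68 against 9 pooled counts gave a ratio of 9.91 (4.93 to 22.6, counting error only). Leaving out 1 CMP library at a time moved this log2 difference over 2.02 (without pMT-10 CMP replicate 1) to 4.45 (without BL/6 CMP replicate 1).

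**Figure D1:**
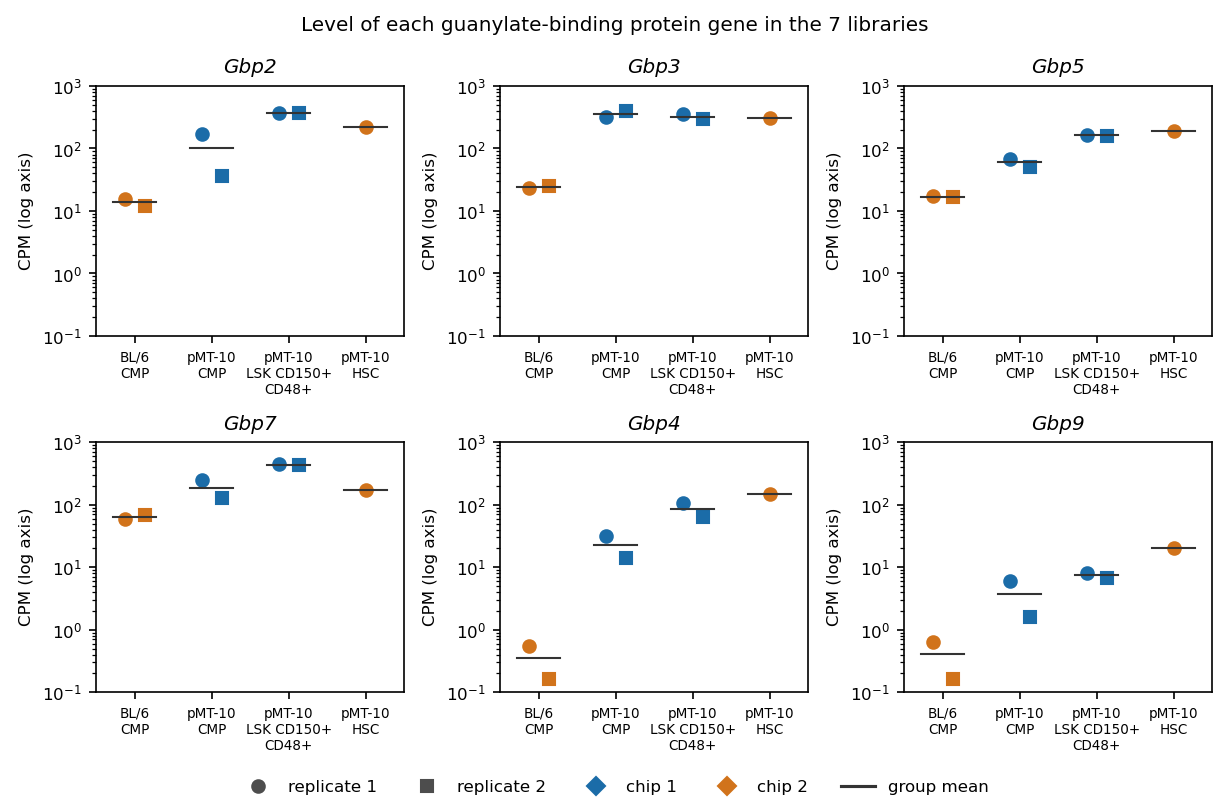
Level of each member in every library, in CPM on a log axis that is the same in all panels, by group (points are libraries, lines are group means, colour is the sequencing chip). Gbp3 sits at 292 to 396 CPM in all 5 pMT-10 libraries, Gbp2 and Gbp7 are highest in LSK cells, and Gbp4, Gbp5 and Gbp9 are highest in the HSC library.

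The only libraries of both strains on one chip were HSC and BL/6 CMPs, which also differ in cell population and in reads of Y-linked genes. All 6 members were at least 2-fold higher in HSC than in both BL/6 CMP libraries, as were 17.8% of all tested genes. The log2 differences were 3.97 ± 0.64 for Gbp2, 3.67 ± 0.23 for Gbp3, 3.47 ± 0.24 for Gbp5 and 1.40 ± 0.33 for Gbp7. For Gbp4 and Gbp9 they were 8.71 ± 0.66 and 5.63 ± 0.77, from 1134 and 151 counts in HSC. With the 8 and 9 counts of the BL/6 pair these gave ratios of 435 (220.2 to 1011) and 51.5 (26.4 to 115), intervals for counting error only. This comparison shares its BL/6 libraries with the strain comparison of the CMPs and is likewise a description.

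LSK CD150+CD48+ cells were compared with CMPs within the pMT-10 strain and within one chip. The way the members were chosen names no value of LSK cells, but it used the pMT-10 CMP libraries. In LSK cells 3 of the 6 members rose (Gbp4, Gbp5 and Gbp7). Over all tested genes 5.92% were called higher and 5.92% lower (edgeR quasi-likelihood test, adjusted p under 0.05). The median log2 fold change of the members was 1.34, against -0.01 over all genes. Gbp5 rose by 1.45 ± 0.20 (SE, adjusted p = 0.00361), Gbp4 by 1.91 ± 0.41 (adjusted p = 0.0203) and Gbp7 by 1.24 ± 0.28 (adjusted p = 0.0238). All 3 were higher in both LSK libraries than in both CMP libraries.

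Gbp2 and Gbp9 were also higher in both LSK libraries without passing the test. Gbp2 had a log2 fold change of 1.86 ± 0.53 (adjusted p = 0.0511) and passed with limma-voom (adjusted p = 0.0271). Gbp9 had one of 0.97 ± 0.56 (adjusted p = 0.275, 95% interval -0.29 to 2.24). Gbp3 was at -0.16 ± 0.19 (adjusted p = 0.602), and its interval of -0.58 to 0.26 does not reach the change of any of the 3 members that rose. Whether Gbp3 differs from these members in its change was not tested. Without LSK replicate 1 or replicate 2 none of the 6 passed (for Gbp5 adjusted p = 0.078 and 0.0598), at log2 fold changes of 1.42 and 1.48 for Gbp5, where the lone LSK library is assumed to vary like the others. Without pMT-10 CMP replicate 1 Gbp2 (3.34, adjusted p = 2.66e-08) and Gbp9 (2.19, adjusted p = 0.00295) passed as well and Gbp4 was at 2.63, and without replicate 2 Gbp2 passed at 1.14 (adjusted p = 0.000361).

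HSC and LSK cells differ in chip as well as in population, and HSC is 1 library that is assumed to vary like the other groups. The HSC library may also have had a part in the choice of the members. Between them 1 of the 6 members passed the test, Gbp7, where 8.15% of all tested genes were called lower and 10.6% higher. Gbp7 fell by 1.37 on the log2 scale (SE 0.36, adjusted p = 0.0298), from 437 ± 14.4 CPM (SD, n = 2) in LSK cells to 170 CPM. Gbp2 was at -0.77 ± 0.65 (adjusted p = 0.429), Gbp3 at -0.07 ± 0.23 (adjusted p = 0.856), Gbp5 at 0.20 ± 0.24 (adjusted p = 0.576), Gbp4 at 0.80 ± 0.46 (adjusted p = 0.247) and Gbp9 at 1.42 ± 0.62 (adjusted p = 0.138). The median was 0.07, against 0.03 over all genes, with members on both sides of it. The fall of Gbp7 did not pass without BL/6 CMP replicate 1 (adjusted p = 0.0513) or without either LSK library (0.15 and 0.123). Conversely Gbp2, Gbp4 and Gbp9 passed without pMT-10 CMP replicate 1 (adjusted p = 0.00252, 0.0345 and 0.00463) and without replicate 2 (0.00235, 0.0328 and 0.0039), at nearly the same log2 differences, since that pair enters only through the shared spread.

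Between HSC and pMT-10 CMPs 3 of the 6 rose, where 13.8% of tested genes were called higher and 11.7% lower. Gbp4 rose by 2.70 ± 0.46 (adjusted p = 0.00472), Gbp9 by 2.39 ± 0.64 (adjusted p = 0.0255) and Gbp5 by 1.65 ± 0.23 (adjusted p = 0.00192). Gbp2 was at 1.09 ± 0.61 (adjusted p = 0.217), Gbp7 at -0.13 ± 0.34 (adjusted p = 0.8) and Gbp3 at -0.23 ± 0.23 (adjusted p = 0.495). The call of Gbp9 was lost without LSK replicate 1 or 2 (adjusted p = 0.0767 and 0.0752), which enter through the shared spread. Gbp2 passed without pMT-10 CMP replicate 1, at 2.57 (adjusted p = 4.78e-07), and Gbp7 without replicate 2, at -0.53 (adjusted p = 0.0338). This comparison uses the same CMP libraries as that of LSK cells, so their values are set side by side only. Those CMP libraries were used in choosing the members, and the HSC library may have been.

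**Figure D2:**
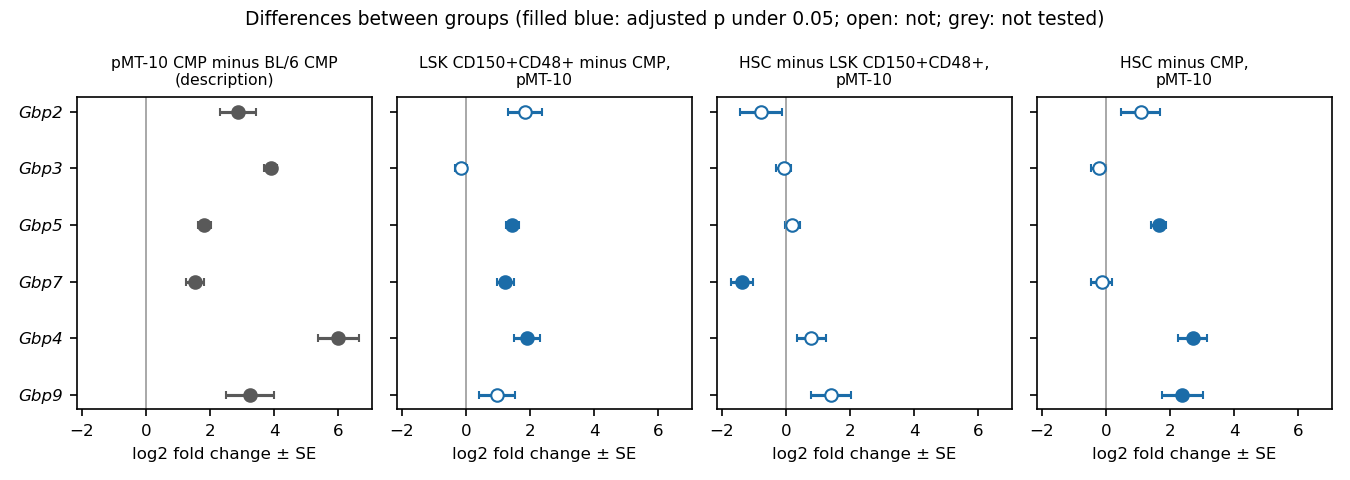
Log2 fold change of each member with its SE in the strain comparison of CMPs (grey, description) and in the 3 comparisons of populations within pMT-10 mice, on one horizontal scale. Gbp3 lies near 0 in all 3 population comparisons, and Gbp7 is the member called lower in HSC than in LSK cells.

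The members fell apart within the pMT-10 CMP pair. Of all tested genes 14% differed at least 2-fold between these libraries. Gbp2 was higher in replicate 1 by 2.18 on the log2 scale, more than in 99.2% of tested genes. Gbp9 (1.60), Gbp4 (1.18), Gbp7 (0.94) and Gbp5 (0.42) were also higher in replicate 1, and Gbp3 was lower there (-0.29). The 3 members farthest apart in this pair, Gbp2, Gbp9 and Gbp4, were also those with the largest SE in the strain comparison. That SE takes in the spread of this pair, so the 2 rankings are not independent.

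Other interferon genes are set beside this pair by their values, picked out here after those were seen. Of 14 genes of the immunity-related GTPase and interferon-γ signalling lists called higher in pMT-10 CMPs, 2 were at least 2-fold apart, Igtp and Ifngr2. Over all tested genes that share was 14%. The call that picked the 14 depends on the spread of this pair, so nothing is read from that share. Igtp, an immunity-related GTPase, was at 237 CPM in replicate 1 and 53.2 in replicate 2, and Ifngr2, a receptor chain, was at 20.8 and 43.4 CPM, the other way round. Irf1, a transcription factor needed for full induction of Gbp genes, was at 420 and 331 CPM, Ciita at 49.8 and 48.2 and Irgm1 at 158 and 159. Ifngr1, the other receptor chain, was at 178 and 354 CPM and was not among the 14. The cause of the split was not tested.

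**Figure D3:**
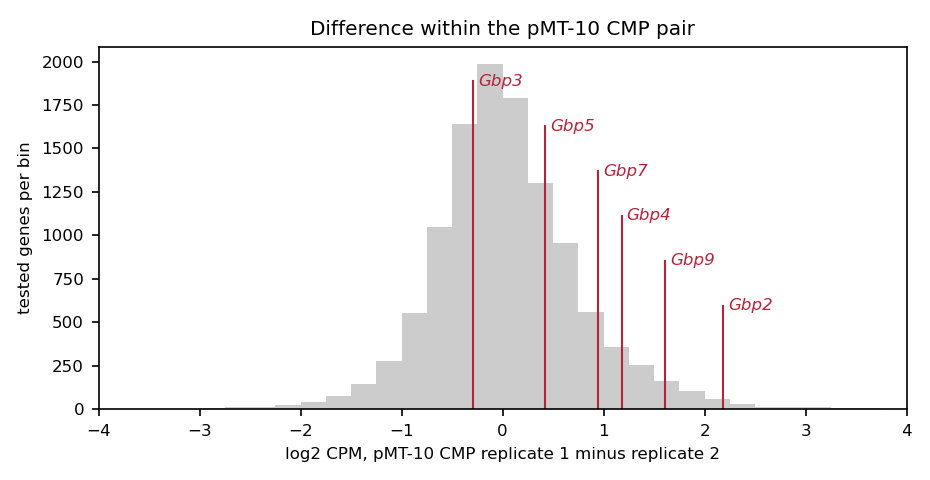
Histogram of the log2 difference between the 2 pMT-10 CMP libraries over all tested genes, with the members marked by vertical lines (line height has no meaning). Gbp2 lies at 2.18 in the right tail and Gbp3 at -0.29, left of 0.

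Over the 7 libraries the centred log2 CPM of each member correlated with the mean of the other 5 at r = 0.872 (Gbp3) to 0.99 (Gbp4). Between pairs of members r ran from 0.773 (Gbp7 with Gbp9) to 0.985 (Gbp4 with Gbp5). These values describe 7 libraries that share strain, chip and population, and the BL/6 pair lies at the low end for every member. Outside the family and the lists, the 5 genes of 7660 with the profile most like the members' mean were Ppm1m (r = 0.994), P4hb (0.989), Parp12 (0.982), Uba7 (0.982) and Gnb2 (0.981). Uba7, the activating enzyme of the ubiquitin-like modifier ISG15, had mean levels of 49.0, 265, 368 and 540 CPM in BL/6 CMPs, pMT-10 CMPs, LSK cells and HSC. Parp12, an ADP-ribosyltransferase induced by interferon, had means of 41.3, 74.3, 128 and 122 CPM. P4hb, a protein disulfide isomerase of the endoplasmic reticulum, had the profile with a much smaller range, from 297 to 433 CPM.

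The immunity-related GTPases are the partner family that loads onto the same vacuoles. Of 6 measured genes 5 were tested, and all 5 were called higher in pMT-10 than in BL/6 CMPs, where 14.3% of tested genes were called higher and 13.7% lower. The lists here and below were chosen with earlier results of these data known. Gm4951 and F830016B08Rik passed the filter on low counts through the pMT-10 libraries alone, so nothing is read from that count. Gm12250, also known as Irgb10, rose by 3.03 ± 0.19 (adjusted p = 6.28e-05). Gm4951 was called too (adjusted p = 0.00303), at 3.82 CPM on average in pMT-10 CMPs against 0.0404 in BL/6 CMPs, where it was barely read. F830016B08Rik (adjusted p = 0.00404) was at 2.03 CPM in pMT-10 CMPs and had 0 counts in BL/6 CMPs, so its fold is not given. In LSK cells against pMT-10 CMPs Gm12250 (0.83 ± 0.17, adjusted p = 0.0177) and Irgm1 (0.73 ± 0.17, adjusted p = 0.0282) rose, and Irgm1 fell again in HSC against LSK cells (-0.80 ± 0.22, adjusted p = 0.0334), as Gbp7 did. In HSC against pMT-10 CMPs 1 gene of the list, Gm12250, was called (0.64 ± 0.20, adjusted p = 0.0481).

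Genes listed for interferon-γ signalling and transcription factors were called in both directions. The list also holds genes that are neither receptor, kinase nor transcription factor, such as Usp18 and Ptpn2. Of its 15 tested genes 9 were called higher in pMT-10 CMPs and 2 lower, with a median of 0.95 on the log2 scale. Over all tested genes 14.3% were called higher and 13.7% lower. Batf2, 1 of the 9, had 8 and 9 counts in BL/6 CMPs. It passed the filter on low counts through the pMT-10 libraries alone, so nothing is read from the count of 9. Irf1 rose by 2.43 ± 0.20 (adjusted p = 0.000403), Stat2 by 2.21 ± 0.20 (adjusted p = 0.000554) and Ciita, the transactivator of MHC class II, by 6.06 ± 0.55 (adjusted p = 0.000554). Irf2 and Jak1 were the genes that fell. The shares over all tested genes were 5.92% higher and 5.92% lower in LSK cells against pMT-10 CMPs. In HSC against pMT-10 CMPs they were 13.8% higher and 11.7% lower. In LSK cells against pMT-10 CMPs Irf2 (0.84 ± 0.18, adjusted p = 0.0226) and Irf1 (0.73 ± 0.19, adjusted p = 0.0416) rose and Irf8 fell (-0.79 ± 0.21, adjusted p = 0.0442). In HSC against LSK cells, with 10.6% of all tested genes called higher and 8.15% lower, 3 of the 15 rose and 1, Ifngr1, fell (-1.46 ± 0.39, adjusted p = 0.0327). In HSC against pMT-10 CMPs 4 rose and 3 fell, led by Irf2 (1.56 ± 0.22, adjusted p = 0.00182), Batf2 (1.48 ± 0.38, adjusted p = 0.023) and Ifngr2 (-1.81 ± 0.47, adjusted p = 0.023).

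In the inflammasome and pyroptosis list, 4 of 11 tested genes were called higher in pMT-10 CMPs, against 14.3% of all tested genes. Zbp1, a nucleic acid sensor, rose by 3.49 ± 0.21 (adjusted p = 6.28e-05), Casp1 by 0.95 ± 0.27 (adjusted p = 0.0282) and Pycard, the adaptor ASC, by 0.69 ± 0.19 (adjusted p = 0.029). Casp4, which encodes the lipopolysaccharide-sensing caspase-11, and Zbp1 were the 2 of 11 called in LSK cells against CMPs (5.92% of all genes higher), at 3.87 ± 0.52 (adjusted p = 0.00318) and 0.87 ± 0.19 (adjusted p = 0.0207). In HSC against LSK cells 3 rose and 2 fell (10.6% and 8.15% over all genes), led by Il18 (2.87 ± 0.47, adjusted p = 0.0053), Aim2 (1.73 ± 0.30, adjusted p = 0.00644) and Zbp1 (-1.10 ± 0.24, adjusted p = 0.0153). In HSC against pMT-10 CMPs 4 rose and 1 fell (13.8% and 11.7% over all genes), with Il18 at 4.34 ± 0.52 (adjusted p = 0.000859), Il1b at 1.90 ± 0.46 (adjusted p = 0.017) and Aim2 at 1.18 ± 0.30 (adjusted p = 0.0212). The gene called lower there was Nlrc4, at 0 CPM in HSC and 1.64 CPM in pMT-10 CMPs. It passed the filter on low counts through those CMPs alone.

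Other lists cover the machinery that places and anchors the proteins. Over all tested genes 5.92% were called higher and 5.92% lower in LSK cells against CMPs. In HSC against LSK cells 10.6% were called higher and 8.15% lower, and in HSC against pMT-10 CMPs 13.8% and 11.7%. Of 12 tested genes of Atg8 conjugation and the ubiquitin ligases that help direct these GTPases, 1 was called higher and 2 lower in pMT-10 CMPs, near the shares over all tested genes (14.3% and 13.7%). They were Trim21 (1.11 ± 0.21, adjusted p = 0.00558), Gabarap (-1.05 ± 0.16, adjusted p = 0.00321) and Atg5 (-0.99 ± 0.22, adjusted p = 0.0108). Atg16l1 was the gene called in LSK cells against CMPs (-1.15 ± 0.18, adjusted p = 0.00597) and, with Gabarapl1 (0.95 ± 0.23, adjusted p = 0.023) and Gabarap (0.80 ± 0.20, adjusted p = 0.0239), 1 of 3 called higher in HSC against LSK cells (1.13 ± 0.21, adjusted p = 0.00947). In HSC against pMT-10 CMPs Gabarap rose (1.06 ± 0.20, adjusted p = 0.00612) and Sqstm1 fell (-0.79 ± 0.23, adjusted p = 0.0345). The 6 prenylation genes lay between -0.30 (Zmpste24) and 0.27 (Pggt1b) on the log2 scale in pMT-10 against BL/6 CMPs, with adjusted p of 0.297 and above. In LSK cells against CMPs their smallest adjusted p was 0.163 (Rce1, 0.41 ± 0.18). Of 10 tested dynamin-like GTPases outside the family 1 rose and 2 fell in pMT-10 CMPs, also near those shares. Those called were Mx1, an interferon-induced member (2.68 ± 0.83, adjusted p = 0.0391), Atl3 (-1.21 ± 0.18, adjusted p = 0.0029) and Atl1 (-3.58 ± 0.73, adjusted p = 0.00818). Mx1 passed the filter on low counts through the pMT-10 libraries alone.

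**Figure D4:**
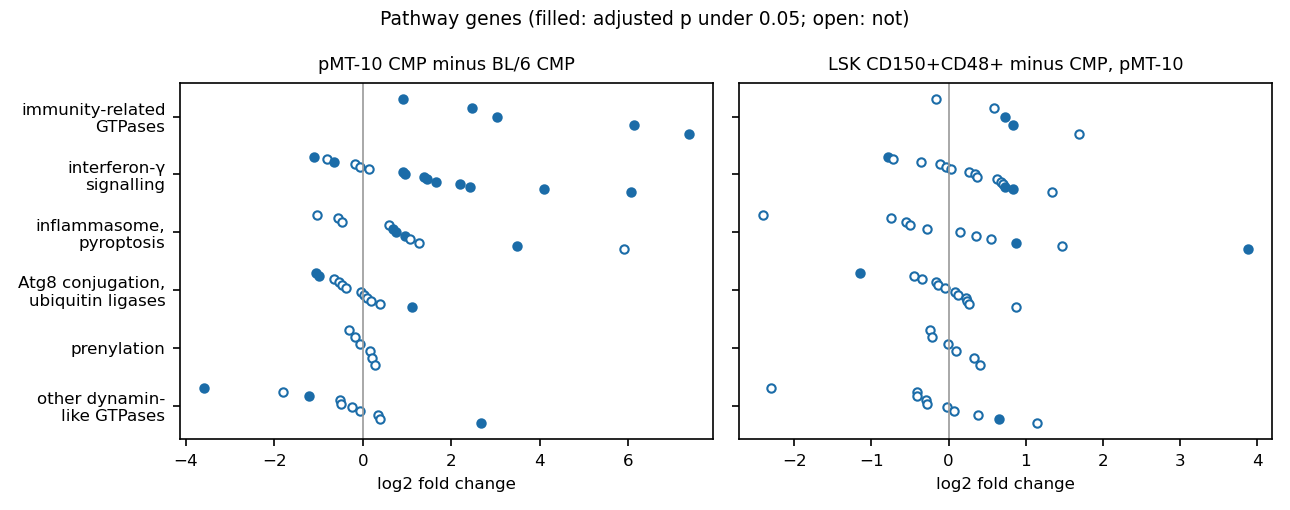
Log2 fold change of the tested genes of 6 pathway lists in the strain comparison of CMPs (left) and in LSK cells against CMPs of pMT-10 mice (right), each point a gene and filled where the adjusted p is under 0.05. All 5 immunity-related GTPases lie right of 0 on the left, where F830016B08Rik is plotted at a fitted value that depends on its 0 counts in BL/6, and the prenylation genes lie near 0 in both.

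Markers of other cells stand beside these results. Between pMT-10 and BL/6 CMPs 14.3% of all tested genes were called higher and 13.7% lower. The summed level of 20 T and NK cell genes was 79.6 and 84.0 CPM in BL/6 CMPs, 190 and 257 in pMT-10 CMPs, 281 and 366 in LSK cells and 131 in HSC. Most of that was Nkg7, at 71.7 to 346 CPM. Of the 5 genes of this list that were tested 4 were called higher in pMT-10 than in BL/6 CMPs. They were Gzmb (18.8 against 1.40 CPM, adjusted p = 0.00063), Nkg7 (adjusted p = 0.00376), Thy1 (adjusted p = 0.014) and Ccl5 (adjusted p = 0.0486). Ccl5 had 6 and 11 counts in BL/6 CMPs and was at 1.21 and 6.03 CPM in pMT-10 CMPs. It passed the filter on low counts through the pMT-10 libraries alone, so nothing is read from the count of 4. Cd3d and Ncr1 had 0 counts in every library and Cd3e and Cd3g at most 1. The sum of 14 monocyte and macrophage genes was 89.4 and 99.4 CPM in BL/6 CMPs, 154 and 168 in pMT-10 CMPs, 82.3 and 109 in LSK cells and 344 in HSC. Lyz2 made up most of it, with 319 CPM in HSC, and was called higher in pMT-10 than in BL/6 CMPs (125 against 68.2 CPM, adjusted p = 0.0125), as was Ctss (4.20 against 1.21 CPM, adjusted p = 0.0379), out of 7 tested. The macrophage genes Adgre1, C1qa and C1qc had at most 2 counts in any library, Fcgr1 at most 6 and C1qb at most 7. The sum of 8 dendritic cell genes was 153 to 156 CPM in BL/6 CMPs and 222 to 328 CPM in the pMT-10 libraries. Bst2, which interferon also induces, carried that difference, with 281 CPM in pMT-10 against 100.1 CPM in BL/6 CMPs (adjusted p = 0.00162). Flt3 (12.7 against 19.7 CPM), Zbtb46 (30.1 against 32.7 CPM) and Itgax (0.789 against 1.56 CPM), the other 3 tested, were not called there. The sum of 7 B and plasma cell genes was 15.4 to 23.5 CPM in all libraries but HSC (60.8 CPM). The sum of 10 neutrophil genes was 115 to 136 CPM in BL/6 CMPs, 304 to 500.4 CPM in pMT-10 CMPs and 21.9 to 32.0 CPM in LSK cells and HSC. Of 7 tested neutrophil genes Ctsg (364 against 98.6 CPM, adjusted p = 0.00246) and Elane (28.9 against 4.45 CPM, adjusted p = 0.00249) were called higher in pMT-10 CMPs. The other 5, uncalled, had lower means there, Mpo for example 7.21 against 14.4 CPM, and the list's median log2 fold change was -1.24. The sum of 6 erythroid genes was 934 to 1020 CPM in BL/6 CMPs and 278 to 673 CPM in the pMT-10 libraries. Klrb1c, an NK cell receptor gene, had 37 counts in HSC and at most 4 in the others. In bulk samples, more cells with a transcript and more transcript per cell cannot be told apart, and the part of these markers in the Gbp levels was not tested.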

How the data were processed

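Total RNA of sorted cells had been turned into libraries with the targeted Ion AmpliSeq Transcriptome kit for mouse, as the labels' protocols state, and the authors deposited raw counts of reads per amplicon, 1 amplicon per gene, in 1 table per chip. The submitters' processing notes name mm10. Which aligner and counter were used is not given in the sources used here. Reads carry no molecular identifiers, and intervals or floors therefore speak of counting error alone.

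Columns were matched to samples by table and barcode. Genes under a minimum count of 10 were removed with filterByExpr, and counts were fitted in R 4.3.3 with edgeR 4.0.16 (TMM, 4 group means, 3 residual degrees of freedom, robust quasi-likelihood F-test, Benjamini-Hochberg adjustment over 11429 genes, call under 0.05). Each adjusted p of a gene is from that fit, unless another tool is named, and SEs were derived from its F statistics. CPM uses TMM-scaled totals. The method was tested on simulated data.

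The members and gene lists were chosen with earlier results of these data known. Named genes are the members, Gbp2b, Gbp11, up to 3 genes of smallest p per pathway list and comparison, and the 5 most similar profiles (at least 20 CPM in a library, log2 CPM + 0.5). Others are named as markers or examples. Alternatives were RLE and total-count scaling, no filter, a minimum count of 50, DESeq2 1.42.0, limma-voom (limma 3.58.1), a prior count of 2, each replicate left out, only the groups compared, and the replicate number as a block.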

Additional observations from a re-analysis of the deposited data

How the results depend on the processing

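The number of called genes depended on the libraries more than on scaling, tool or filter. Leaving out 1 library of a pair at a time gave 582 to 5268 genes for pMT-10 against BL/6 CMPs (3204 with all), 44 to 4274 for LSK cells against CMPs (1354), 266 to 4811 for HSC against LSK cells (2147) and 1733 to 5222 for HSC against CMPs (2912). Members called ranged over 0 to 5, 0 to 4 and 2 to 4 in the last 3, and members at least 2-fold higher without overlap over 5 to 6 in pMT-10 CMPs and 6 to 6 in HSC against BL/6 CMPs. Only the groups compared gave 595 genes for LSK cells against CMPs, 3987 genes and 4 members for HSC against LSK cells and 1042 genes for HSC against CMPs. Gbp7 then missed the threshold in LSK cells (adjusted p = 0.0541). No filter gave 2237 genes for LSK cells against CMPs and 3 members for HSC against LSK cells. Signs turned for values uncalled with all libraries, Gbp7 in HSC against CMPs (0.417 without pMT-10 CMP replicate 1, -0.527 without replicate 2) and Gbp3 in HSC against LSK cells (0.077 without LSK replicate 1, -0.204 without replicate 2). The cause was not tested. The replicate block left 6 and 3 members in the 2 comparisons without HSC, with 2979 and 1181 genes called and no member's call changed. Replicate numbers are only names, with correlations of -0.092 to -0.017 between the pairs' differences. Depth limits Gbp4 and Gbp9 in BL/6 CMPs, at 2 to 7 counts.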
